A study of Arabidopsis thaliana with 18 samples.

Results

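Seedlings kept in the dark were compared with seedlings given 150 min of white light (WL), in 3 libraries each, taken by their labels as 6 of the 18 libraries of a time course of deetiolation. All genes were considered, and 16747 of the 34212 genes in the files passed the filter on zeros and were tested. Both groups were whole seedlings of Arabidopsis thaliana ecotype Columbia-0 (Col-0), grown for 5 days in constant darkness on medium without sucrose, and no mutation or transgene is named for either. Per the methods, germination was induced with WL before the dark period. After that the dark group had no WL and was harvested under green light. The other group was moved to WL and harvested after 150 min. The other groups of the series had 15, 30, 60 or 360 min of WL, and those of 60 and 360 min are used below only to show where 150 min differed from its neighbours. No dark seedlings were collected beside the light samples, so that light and the time elapsed cannot be told apart. The methods describe the libraries of a group as biological replicates, each from a pool of seedlings, and the labels give no culture or batch. A p-value therefore measures the spread between such pools.

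Deetiolation is the switch from the dark form of a seedling, which is pale and invests in hypocotyl length, to the green form that feeds itself. In the dark the ubiquitin ligase COP1 with its SPA partners removes transcription factors such as HY5, while the PIF factors keep growth genes active. Light, seen by phytochromes, cryptochromes and phototropins, reverses this balance, and HY5 then activates genes for pigments and chloroplasts.

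Library totals of estimated counts ran from 12142398 to 13765666 in the dark and from 13213131 to 16156302 at 150 min, but ribosomal RNA of the plastid took 34.6% to 72.0% of the dark libraries and 40.9% to 83.2% of the 150 min libraries. The counts left were 3395970 to 9007952 in the dark and 2215217 to 9378923 at 150 min, and replicate 3 was the shallowest in each group. It held 0 counts for 4.08% of the genes tested in the dark and for 7.30% at 150 min, where the other 4 libraries reached at most 0.346%. Whole seedlings mix organs, and fewer cells of a type cannot be told apart from less RNA per cell. Summed CPM (normalized counts scaled to library size) of 9 root markers were 52.2 to 133 in the dark and 34.3 to 79.6 at 150 min. Those of 9 seed storage markers were 0.839 to 180 and 1.14 to 116, those of 5 epidermis and guard cell markers 74.1 to 181 and 83.8 to 234, and those of 2 phloem markers 17.5 to 24.5 and 12.3 to 23.9. Each sum overlapped between the groups, and their part in the results below was not tested. Values in libraries are given below as normalized read counts, scaled to a common library size by edgeR's TMM factors, in the order of replicates 1, 2 and 3.

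After 150 min of WL, 368 genes were higher (2.2% of the genes tested) and 94 were lower (0.561%) than in the dark at an adjusted p below 0.01 in edgeR's quasi-likelihood test, which makes 2.76% changed in either direction. Only these genes are named called, or said to have risen or fallen, in what follows. The shares of 2.2% and 0.561% are the background for the counts of list members below. At an unadjusted p below 0.05, 8.94% were higher and 5.81% lower. The median log2 fold change was 2.94 among the genes that rose and −2.56 among those that fell, against −0.03 over all genes tested. A log2 fold change beyond 2 in either direction was reached by 315 of the former and 73 of the latter. The 3 light libraries lay above the 3 dark libraries for 12.5% of all genes tested and below them for 10.9%. Of the called genes, 367 of 368 and 94 of 94 were separated in this way, the exception being HSFA2. With 1 of the 6 libraries left out, 218 to 285 genes were called higher and 41 to 79 lower. The lowest counts came without dark replicate 1 (218 higher) and without 150 min replicate 1 (41 lower). Scaling by total counts in place of TMM left 3 higher and 1 lower, and total counts without plastid rRNA gave 287 and 87. DESeq2's Wald test called 616 and 216.

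**Figure D1:**
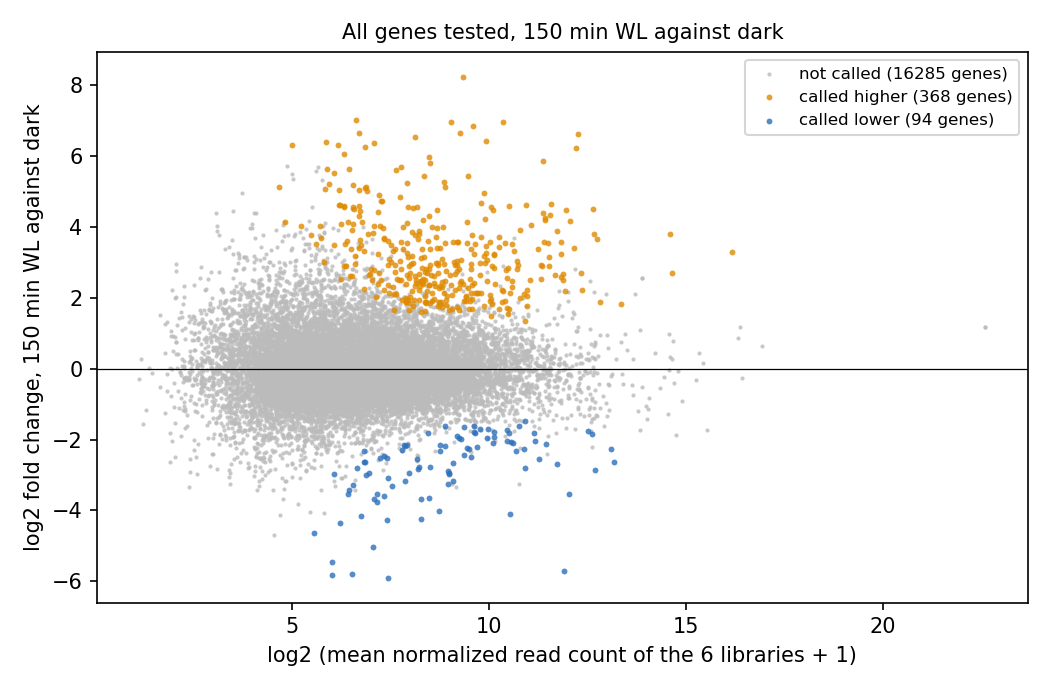
Each point is 1 of the 16747 genes tested, with the log2 of its mean normalized read count over the 6 libraries (plus 1) on the x axis and its log2 fold change at 150 min of WL against the dark on the y axis. The 368 genes called higher and the 94 called lower lie mostly beyond a log2 fold change of 2 in size.

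Among called genes whose 6 libraries averaged 10 or more normalized counts and whose groups were fully separated, the largest rise was that of ELIP2, which encodes an early light-induced protein that binds pigments freed while thylakoids are assembled. Its normalized read counts were 2.93, 2.72 and 9.07 in the dark and 926.7, 1247 and 1730 after WL (log2 fold change 8.23, SE 0.71, edgeR adjusted p = 1.41e-07). Its relative ELIP1 went from 13.2, 18.4 and 34.5 to 2310, 2867 and 2647, a log2 fold change of 6.94 (SE 0.47, edgeR adjusted p = 7.05e-09). Separated groups were a condition of this choice, and in both genes the lowest light library stood far above the highest dark library. SIG5, a sigma factor that directs the plastid RNA polymerase to chosen promoters, went from 17.6, 13.6 and 7.26 to 1470, 1491 and 1642 (log2 fold change 6.83, SE 0.48). HYH, the closest homolog of HY5, went from 11.7, 8.16 and 18.1 to 679.7, 1137 and 1808 (6.63, SE 0.63). The chlorophyll-binding antenna gene LHCB1.1, the flavonoid genes CHS and F3H, and the B-box gene BBX30 were the other list genes among the 12 with the largest rise. Outside the lists, these 12 held MIR163, the precursor gene of a microRNA, at 2.2, 2.72 and 0 in the dark and 235.1, 221.5 and 156.7 in the light (6.63, SE 0.96). They also held 3 genes known by their identifiers, AT4G12830 (7.0, annotated as an alpha/beta-hydrolase), AT3G56290 (6.95) and AT2G15020 (6.40).

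**Figure D2:**
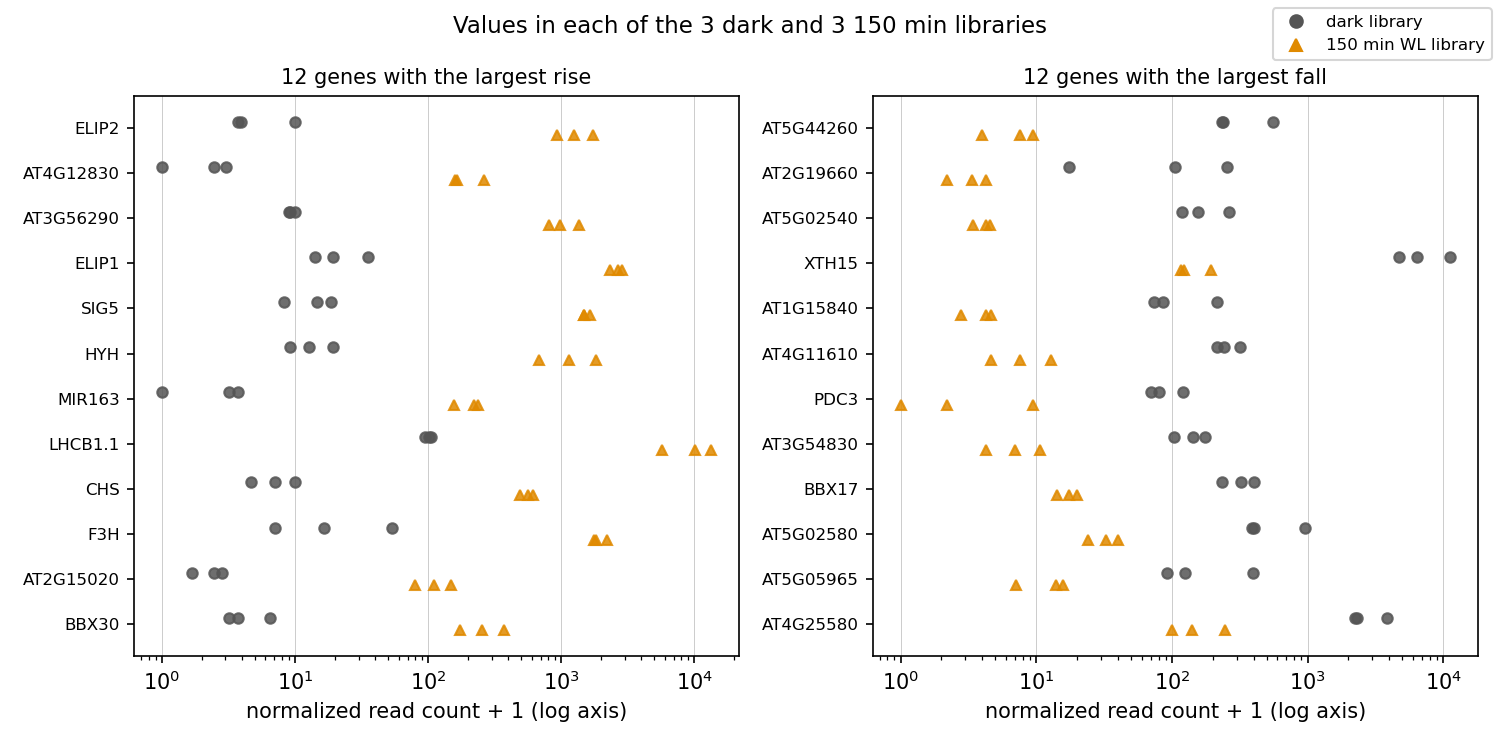
Normalized read counts plus 1 (log axis) in each dark library (circles) and each 150 min WL library (triangles) for the 12 genes with the largest rise and the 12 with the largest fall. Only genes whose groups were fully separated could be chosen, so in all 24 the 3 light libraries lie on 1 side of the 3 dark libraries. For ELIP2 they lie at 926.7 to 1730 against 2.72 to 9.07.

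By the same limits, the 12 genes with the largest fall were led by AT5G44260, which encodes a zinc finger protein of the CCCH type. Its counts were 232.2, 553.3 and 235.9 in the dark and 2.98, 8.47 and 6.53 at 150 min (log2 fold change −5.89, SE 0.80). XTH15, a xyloglucan endotransglucosylase/hydrolase that remodels the wall of growing cells, went from 4724, 11240 and 6416 to 114.9, 122.3 and 192.6. Its log2 fold change was −5.72 (SE 0.51, edgeR adjusted p = 1.97e-07). BBX17, a B-box zinc finger gene, went from 231.5, 324.9 and 402.8 to 19.1, 13.3 and 16.3 (−4.28, SE 0.56). PDC3, a pyruvate decarboxylase gene, went from 119.4, 79.5 and 69.0 to 1.19, 8.47 and 0 (−4.63, SE 1.00). AT4G25580, annotated as a CAP160 protein, went from 2235, 3852 and 2299 to 244.6, 99.3 and 140.3 (−4.10, SE 0.49). The other 7, AT2G19660, AT5G02540, AT1G15840, AT4G11610, AT3G54830, AT5G02580 and AT5G05965, had log2 fold changes of −5.81 to −4.16, and their light libraries held 1.21 to 39.2 counts. Of the 133 called genes that are named here by rule, 79 kept the call whichever of the 6 libraries was left out, 65 of 100 that rose and 14 of 33 that fell. The call of SIG2, TKL1, GLDP2, PSBR, SAUR21 and AT3G54830 was lost without any 1 of the 6 libraries, while each kept its direction. It held in 1 of the 6 fits for BBX21, IAA29, LHCB1.3, PSAG, PSBQ2, PETC, GAPA2, FBP, BCH1, CCA1, PDC3 and HSFA2, and in 2 to 5 for the others that lost it.

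The 250 bases upstream of the annotated start of each gene were read from the TAIR10.1 assembly for 16620 of the genes tested. The G-box CACGTG, a motif that bZIP factors such as HY5 and bHLH factors such as the PIFs bind, was present on either strand in 14.1% of the windows of genes that rose (52 of 368) and 11.7% of those of genes that fell (11 of 94), against 7.56% of all genes tested. Its core ACGT, which every G-box contains, was in 54.6%, 42.6% and 44.5% in the same order. The E-box CATGTG or CACATG was in 12%, 18.1% and 11%, the I-box core GATAA in 55.7%, 61.7% and 56.1%, and the evening element AAAATATCT in 3.26%, 2.13% and 2.46%. These shares are descriptions without a test, and a match does not show that a factor binds there. Of the named genes, 17 of the 100 that rose and 6 of the 33 that fell held a G-box in their window. The windows of the 4 of these that rose most and the 2 that fell most follow, 5′ to 3′ toward the gene and ending at the base before its start, with the G-box in capitals. They are shown because they place the same 6 letters upstream of genes that moved in opposite directions.
ELIP1: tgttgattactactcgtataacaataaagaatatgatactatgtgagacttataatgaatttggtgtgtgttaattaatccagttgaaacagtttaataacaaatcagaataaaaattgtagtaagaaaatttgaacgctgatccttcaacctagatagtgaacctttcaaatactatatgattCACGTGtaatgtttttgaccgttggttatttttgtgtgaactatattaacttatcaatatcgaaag
CHS: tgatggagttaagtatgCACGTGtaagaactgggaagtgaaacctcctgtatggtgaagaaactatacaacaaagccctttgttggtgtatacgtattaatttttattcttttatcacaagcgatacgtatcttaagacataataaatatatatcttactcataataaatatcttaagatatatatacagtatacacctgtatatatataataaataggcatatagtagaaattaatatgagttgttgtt
F3H: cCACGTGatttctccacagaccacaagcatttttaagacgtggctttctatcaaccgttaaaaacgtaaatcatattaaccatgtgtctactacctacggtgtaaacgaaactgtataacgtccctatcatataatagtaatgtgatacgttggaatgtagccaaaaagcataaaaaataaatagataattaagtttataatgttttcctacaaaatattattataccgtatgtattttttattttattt
BBX30: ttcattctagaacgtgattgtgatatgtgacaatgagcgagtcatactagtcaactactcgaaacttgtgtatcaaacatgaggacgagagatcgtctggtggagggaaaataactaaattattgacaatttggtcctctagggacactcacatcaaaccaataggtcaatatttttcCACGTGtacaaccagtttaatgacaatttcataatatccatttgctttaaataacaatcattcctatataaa
AT2G19660: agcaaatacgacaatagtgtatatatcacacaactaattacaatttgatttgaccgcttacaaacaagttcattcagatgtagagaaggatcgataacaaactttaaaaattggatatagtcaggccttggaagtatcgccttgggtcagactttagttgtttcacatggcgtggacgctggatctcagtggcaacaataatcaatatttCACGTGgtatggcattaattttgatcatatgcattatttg
AT5G05965: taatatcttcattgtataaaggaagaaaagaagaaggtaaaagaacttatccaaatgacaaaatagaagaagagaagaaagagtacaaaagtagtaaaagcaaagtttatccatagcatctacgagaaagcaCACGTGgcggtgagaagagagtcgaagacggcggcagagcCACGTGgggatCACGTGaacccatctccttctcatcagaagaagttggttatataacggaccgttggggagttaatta
The window of ELIP1 is chr3:8085670-8085919 (minus strand), and its G-box begins 66 bases before the start. Those of CHS, chr5:4488226-4488475, and F3H, chr3:19024942-19025191, are on the plus strand, with G-boxes 233 and 249 bases before the start, at the far end of the window. The window of BBX30, chr4:8708591-8708840 (plus strand), holds it 72 bases before the start. On the side of the genes that fell, AT2G19660 (chr2:8498808-8499057, minus strand) holds it 40 bases before the start. AT5G05965 (chr5:1792635-1792884, minus strand) holds 3 copies, which begin 118 to 67 bases before the start. The window of F3H lies in the annotation of AT3G51238, and that of AT2G19660 overlaps AT2G19670.

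Among the receptors themselves, PHYA and PHOT2 changed in opposite directions. PHYA, the phytochrome that accumulates in the dark and is degraded in light, went from 3466, 1672 and 1682 to 849.3, 512.1 and 290.5 (log2 fold change −2.04, SE 0.45, edgeR adjusted p = 0.00687). The groups did not overlap, but this call was lost in 4 of the 6 fits with 1 library left out, where the log2 fold change was −2.50 to −1.60. PHOT2, the phototropin of strong blue light, went from 216.8, 370.4 and 150.6 to 1621, 1160 and 1041 (2.37, SE 0.36, edgeR adjusted p = 1.69e-04). The gene on the opposite strand shares 2760 bases with PHOT2, and reads of the shared part may be assigned to either, since the assignment of reads is not stated to use the strand. PHYB, the main phytochrome of light-grown plants, stood at 300.3, 163.1 and 206.8 in the dark and 389.3, 201.0 and 169.7 in the light, and the cryptochromes CRY1 and CRY2 overlapped between the groups as well. In all, 1 of 10 photoreceptor genes rose and 1 fell, against 2.2% and 0.561% of all genes tested. The median log2 fold change of the 10 was −0.28 (0.06 without dark replicate 1 or 150 min replicate 3).

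Of 12 partners and repressors of the photoreceptors, 3 rose and 0 fell, against 2.2% and 0.561% of all genes tested. Each of the 3 restrains light signaling, as most members of this list do by its choice. SPA3, a partner of COP1, went from 73.3, 42.1 and 23.6 to 525.0, 325.6 and 300.3 (log2 fold change 3.03, SE 0.52). RUP1, which returns the UV-B receptor UVR8 to its inactive state, went from 202.9, 175.4 and 81.7 to 1028, 932.1 and 953.0 (2.65, SE 0.38). Its homolog RUP2 went from 27.8, 12.9 and 63.5 to 1062, 587.1 and 179.5 (4.2, SE 0.82), and its call was lost in 3 of 6 fits with 1 library left out. The 3 light values of RUP2 spread more than those of RUP1, yet all lay above the dark values. The groups of SPA1 (3.18, edgeR adjusted p = 0.0861) and COP1 (1.2, edgeR adjusted p = 0.198) did not overlap, as for 12.5% of all genes tested in that direction. Neither gene passed the test. FHY1 and FHL, which carry phytochrome A into the nucleus, had log2 fold changes of −2.06 and −2.88 and did not pass either.

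HY5, the bZIP factor at the centre of photomorphogenesis, rose from 188.3, 167.9 and 372.0 to 1981, 3822 and 6276, a log2 fold change of 4.06 (SE 0.61, edgeR adjusted p = 1.26e-04). The lowest light library, at 1981, lay far above the highest dark library, at 372.0. Of the 12 tested transcription factors of photomorphogenesis 8 rose and 1 fell, and their median log2 fold change was 3.44 against −0.03 for all genes. Most of these are B-box proteins, zinc finger factors that bind HY5 or modulate its action. BBX24 rose from 268.8, 575.7 and 406.4 to 2887, 3437 and 2474 (2.81, SE 0.39), and BBX22 from 135.5, 95.8 and 395.5 to 745.8, 1163 and 1116 (2.28, SE 0.42). The microproteins and repressors BBX30, BBX31 and BBX32 were at 0 to 5.44 counts in every dark library and at 110.2 to 372.1 in every light library, with log2 fold changes of 6.35, 5.61 and 6.05. BBX25 rose likewise by a log2 of 4.6. BBX21, an activator that acts upstream of HY5, fell from 2437, 3692 and 2351 to 1065, 986.6 and 1015 (−1.47, SE 0.32, edgeR adjusted p = 0.00521), and the call held in 1 of 6 fits with 1 library left out. BBX20 (−2.61), BBX28 (0.63) and BBX29 (2.16) did not pass the test.

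The regulators of greening and the sigma factors showed 5 rises (3 without dark replicate 1) and 0 falls among 10 genes, with a median log2 fold change of 1.58. GNL, a GATA factor that promotes chloroplast development, went from 0.733, 5.44 and 7.26 to 196.4, 144.1 and 78.3 (5.04, SE 0.93). Its paralog GNC (0.95) and the greening factors GLK1 (0.72) and GLK2 (1.57, edgeR adjusted p = 0.0239) did not pass. SIG3 moved from 101.8, 102.6 and 101.6 to 518.4, 506.0 and 502.6 (2.32, SE 0.39), with hardly any spread within either group. SIG1 rose by a log2 of 2.85 and SIG2 by 1.59. Of 61 tested genes with a plastid identifier other than rRNA, 0 were called by edgeR's quasi-likelihood test. At an unadjusted p below 0.05 in edgeR 0 were higher and 1 lower, against 8.94% and 5.81% of all genes tested, and DESeq2's Wald test called 0. Their median log2 fold change was 0.30, but −0.50 under scaling by total counts and −0.31 without 150 min replicate 3. Poly(A) RNA was sequenced, and how evenly it captured plastid transcripts was not tested. Plastid rRNA took 34.6% to 83.2% of the libraries of the 2 groups. The 0 calls therefore do not show that plastid transcripts stayed level.

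**Figure D3:**
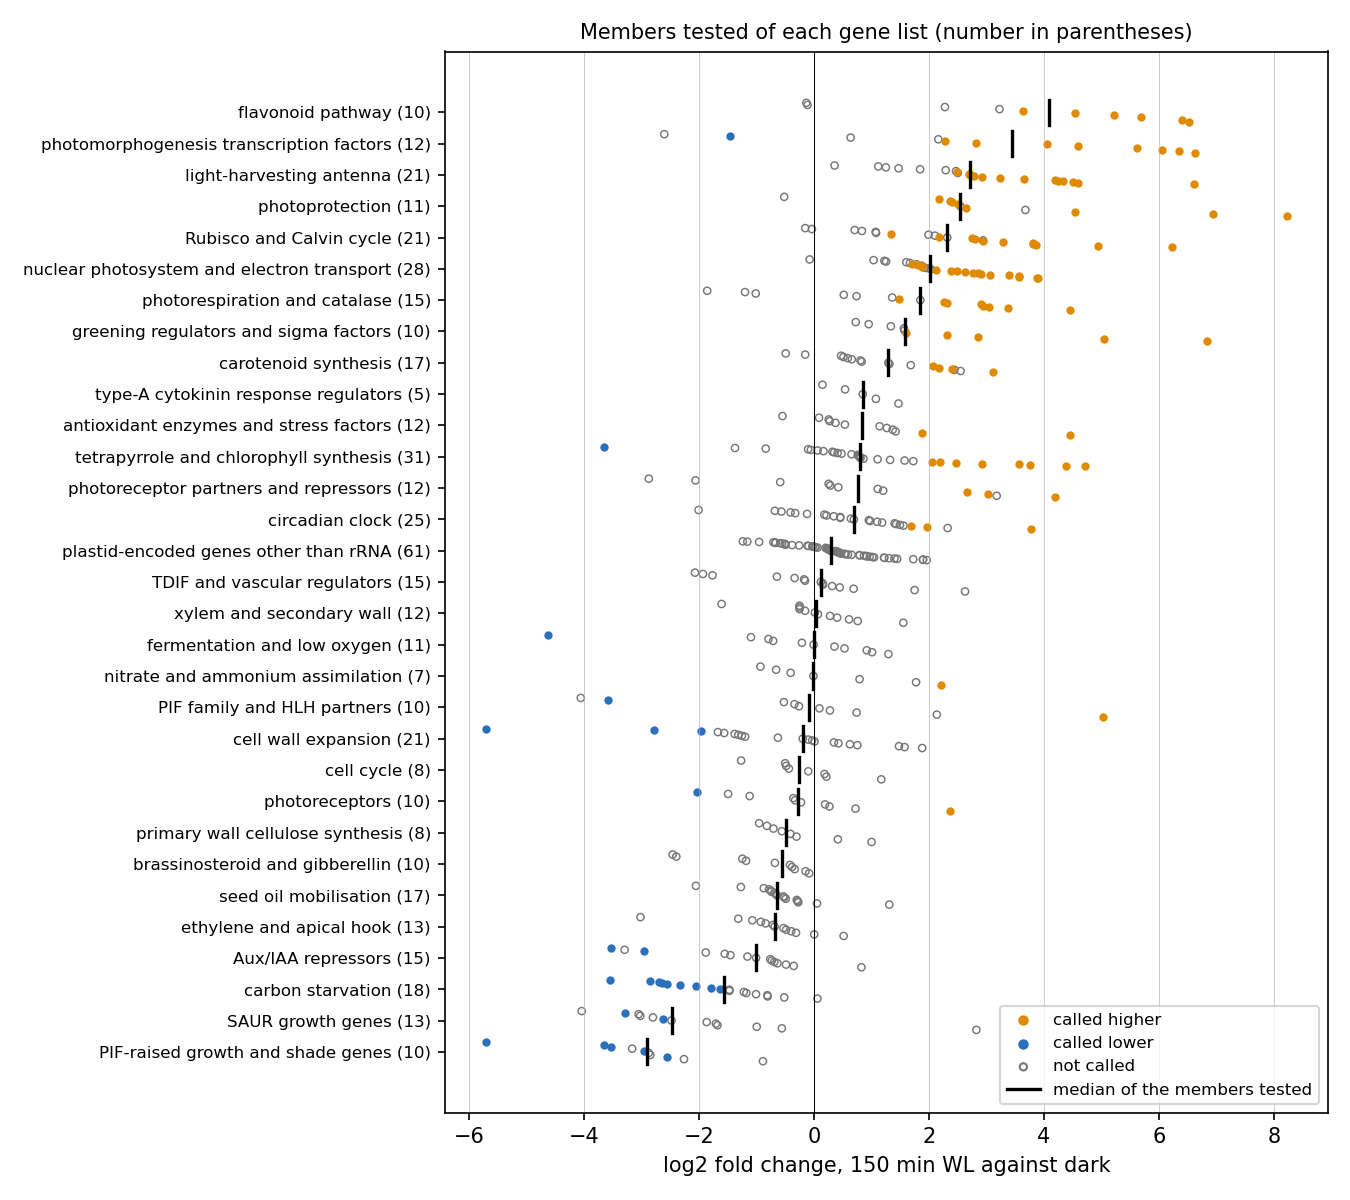
Each row is a gene list with the number of members tested, each circle is 1 member at its log2 fold change at 150 min of WL against the dark, filled where it was called, and the black line is the median of the members tested. The lists of the flavonoid pathway (median 4.09), photomorphogenesis factors (3.44) and the antenna (2.71) lie farthest to the right, and the PIF-raised genes (−2.92) and SAUR genes (−2.48) farthest to the left. Without the filter on zeros the photomorphogenesis median is 2.55, below that of the antenna.

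The light-harvesting antenna, whose proteins hold most of the chlorophyll of the thylakoid, rose in 12 of 21 genes and fell in 0, with a median log2 fold change of 2.71. LHCB1.1 went from 104.8, 99.9 and 94.4 to 5680, 10040 and 13390 (6.60, SE 0.48, edgeR adjusted p = 1.06e-08). LHCB1.2 went from 98.2, 146.8 and 105.2 to 2585, 3037 and 2810 (4.59, SE 0.49). LHCB1.3, already at 6920, 9855 and 3984 in the dark, reached 23900, 46340 and 63370 (2.69, SE 0.59), and its call held in 1 of 6 fits with 1 library left out. These LHCB1 genes are near-identical in sequence, and the split of reads between them is uncertain. The other antenna genes of photosystem II that rose were LHCB2.1 (4.25), LHCB2.2 (4.33), LHCB3 (4.2), LHCB5 (2.92) and LHCB6 (3.24). Of the antenna of photosystem I, LHCA1 had the largest rise, from 425.6, 732.7 and 455.4 to 9581, 15980 and 10870 (4.50, SE 0.45), and LHCA3, LHCA4 and LHCA5 rose by a log2 of 2.49, 3.65 and 2.77. The 9 antenna genes that did not pass had positive log2 fold changes of 0.35 to 2.71, the lowest in LHCB4.3.

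Of the 28 nuclear genes for photosystem subunits and electron carriers, 17 rose and 0 fell, with a median log2 fold change of 2.01. The count was 11 without dark replicate 1 or 3 or without 150 min replicate 2 or 3. FD1, a leaf ferredoxin, had the largest rise, from 150.2, 315.4 and 206.8 to 2560, 4101 and 3362 (3.90, SE 0.44). PSAK, a photosystem I subunit, was close to it, from 296.7, 595.4 and 402.8 to 4230, 7256 and 7559 (3.88, SE 0.44). PSBO2, of the oxygen-evolving complex, rose by a log2 of 3.06 (SE 0.46), and its paralog PSBO1 by 1.87 (SE 0.39). Of the pair PSAE1 and PSAE2, PSAE1 rose by a log2 of 2.77 and PSAE2 had −0.08 (edgeR adjusted p = 0.966), a difference that was not tested. Other subunits of photosystem I that rose were PSAF (2.63), PSAG (1.70), PSAH2 (3.56), PSAN (2.38) and PSAO (3.56). Of photosystem II, PSBQ2 (1.87), PSBR (1.81) and PSBX (2.84) rose. The carriers PETC (2.13), PETE2 (2.90), FD2 (3.40) and FNR1 (2.48) rose too. Photoprotection rose in 8 of 11 genes (median 2.54): the ELIPs, the one-helix proteins OHP1 (4.54) and OHP2 (2.51), SEP1 (2.36) and SEP2 (2.63), and the xanthophyll cycle enzymes VDE1 (2.17) and ZEP (2.39). PSBS, the sensor of lumen pH in heat dissipation, had 3.67 but did not pass (edgeR adjusted p = 0.0117).

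In the tetrapyrrole pathway, which makes chlorophyll and heme, 8 of 31 genes rose (5 without dark replicate 3) and 1 fell, and the median log2 fold change was 0.79. CHLH, the porphyrin-binding subunit of magnesium chelatase, went from 159.0, 280.7 and 286.7 to 4695, 5713 and 4726 (4.38, SE 0.39, edgeR adjusted p = 2.01e-07). GUN4, which activates that enzyme, went from 74.0, 104.0 and 74.4 to 1317, 1151 and 528.7 (3.57, SE 0.52), but it overlaps 946 bases of a gene on the opposite strand. CHLI1 (2.47), the cyclase subunit CHL27 (2.92), the divinyl reductase DVR (3.76), HEMC (2.04) and the ferrochelatase FC2 (AT2G30390, 2.2) also rose. The protochlorophyllide oxidoreductases, of the light-requiring step, were called in opposite directions. PORA, the form of etiolated seedlings, fell from 535.5, 952.2 and 469.9 to 19.6, 49.6 and 94.7 (−3.66, SE 0.60). PORC, the form of green tissue, rose from 11.7, 14.3 and 5.44 to 216.1, 330.5 and 329.6 (4.72, SE 0.71). PORB had −1.38 and did not pass (edgeR adjusted p = 0.0559). HEMA1, the entry to the pathway, had 1.72 (edgeR adjusted p = 0.0843).

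In the Calvin cycle, with Rubisco, 11 of 21 genes rose and 0 fell (median log2 fold change 2.31). The count was 6 without dark replicate 1 or 150 min replicate 2, and 7 without dark replicate 3 or 150 min replicate 1. The small subunit gene RBCS1A went from 10870, 17210 and 13390 to 85770, 143000 and 175500 (3.29, SE 0.59). RBCS1B went from 106.2, 102.6 and 165.1 to 11630, 11010 and 5232 (6.23, SE 0.60), and the reads of RBCS1B, RBCS2B and RBCS3B may be split uncertainly between near-identical copies. RCA, which reactivates Rubisco, rose by a log2 of 3.80 (SE 0.52), the aldolase FBA1 by 4.94 (SE 0.54) and CP12-2, a redox-controlled regulator of the cycle, by 3.85 (SE 0.56). RBCS3B (3.80), PGK1 (2.18), GAPA2 (2.74), GAPB (2.94), FBP (AT3G54050, 2.81) and TKL1 (1.33) also rose. Photorespiration, which recovers the carbon of the oxygenation reaction, rose in 8 of 15 genes (median 1.85), led by GLDP1, a subunit of glycine decarboxylase, from 211.7, 412.6 and 417.3 to 6033, 7888 and 8963 (4.46, SE 0.41). The count was 4 without dark replicate 1 or 3 and 5 without 150 min replicate 1 or 2. GOX1 and GOX2, near-identical glycolate oxidase genes, rose by 3.38 and 2.31. GGT1 (AT1G23310, 2.90), SHM1 (3.05), PGLP1 (2.94), GLDH1 (2.26) and GLDP2 (1.48) were the other members that rose. The catalases had log2 fold changes of −1.86 for CAT3, −1.20 for CAT1 and 0.51 for CAT2 and none past the test. GLU1, the glutamate synthase that takes up ammonium released in photorespiration, was the member that rose (2.21, SE 0.43) of 7 genes of nitrate and ammonium assimilation, a call lost without dark replicate 1, dark replicate 3 or 150 min replicate 1.

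The flavonoid pathway, which makes sunscreen pigments, had the highest median of the 30 lists, 4.09, although 10 of its 20 genes did not pass the filter on zeros and were not tested. CHS, the entry enzyme, went from 3.66, 6.12 and 9.07 to 561.9, 608.9 and 486.3 (6.52, SE 0.57, edgeR adjusted p = 1.41e-07). CHI, CHIL, F3H and the glycosyltransferases UGT78D2 and UGT89C1 rose by a log2 of 4.54, 5.68, 6.40, 5.22 and 3.64, and 0 of the 10 tested genes fell. UGT89C1 shares 1580 bases with a gene on the opposite strand, and F3H shares 1588. TT7, which adds a hydroxyl group to the B ring, stood at −0.14. In carotenoid synthesis 4 of 17 genes rose (median 1.29), against 2.2% of all genes tested. Among the 4 were PSY, the entry enzyme, from 57.9, 61.9 and 72.6 to 679.7, 585.9 and 385.1 (3.11, SE 0.45), and BCH1 (2.07).

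Of 25 clock genes tested, 3 rose and 0 fell (median log2 fold change 0.69), against 2.2% and 0.561% of all genes tested. Without dark replicate 3, 1 clock gene rose, where 240 of all 16747 genes tested did. ELF4, of the evening complex, went from 129.7, 44.9 and 139.7 to 1199, 1393 and 1678 (3.77, SE 0.60, edgeR adjusted p = 2.37e-04). RVE7 went from 342.8, 445.2 and 277.6 to 1072, 1267 and 1110 (1.69, SE 0.30), and CCA1, a morning MYB factor, from 133.3, 182.8 and 159.7 to 741.6, 544.8 and 574.4 (1.97, SE 0.41), where the call held in 1 of 6 fits with 1 library left out. LHY, the partner of CCA1, had 1.1 (edgeR adjusted p = 0.418), and TOC1 had 0.21. The partners of ELF4 in the evening complex, ELF3 (0.34) and LUX (−0.33), did not pass the test, so ELF4 was the only called gene of the complex.

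Of 10 genes of the PIF family and its partners, 1 rose and 1 fell (median log2 fold change −0.09, but 0.15 without dark replicate 1, 0.08 without dark replicate 2 and 0.17 without 150 min replicate 3). PIF1, PIF3, PIF4 and PIF5, the factors that maintain growth in the dark, had log2 fold changes of 0.09, −0.34, 0.74 and 0.27 with overlapping groups, and none passed the test. PIF7, best known from shade, rose from 4.40, 6.80 and 10.9 to 204.7, 215.5 and 270.9 (5.02, SE 0.90), though it shares 318 bases with a gene on the opposite strand. PIL1, a bHLH gene that PIFs activate, fell from 350.2, 278.0 and 252.2 to 14.3, 20.6 and 42.4 (−3.59, SE 0.67). The call of PIF7 was lost without dark replicate 1 or 2, and that of PIL1 without dark replicate 1 or 150 min replicate 1 or 2. The growth and shade genes that PIFs raise fell in 5 of 10 cases and rose in 0, with a median of −2.92. ATHB2, a homeodomain factor of shade growth, went from 631.5, 729.3 and 353.8 to 28.6, 40.0 and 71.8 (−3.67, SE 0.64). HAT2, of the same family, went from 610.2, 331.7 and 522.6 to 71.4, 98.1 and 78.3 (−2.56, SE 0.38). The auxin response repressors IAA19 (−2.96) and IAA29 (−3.53) fell, and they were the 2 that fell of 15 Aux/IAA genes (median −1.01). The call of IAA29 held only without dark replicate 3 among the 6 fits with 1 library left out. HAT1, HAT3, ATHB4 and FHL had −2.85, −2.27, −3.17 and −2.88 and did not pass. Their groups were separated, as for 10.9% of all genes tested in that direction.

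Few SAUR and cell wall expansion genes fell, where 0.561% of all genes tested were called lower. The lists were chosen with earlier results of these data known, so their shares are descriptions only. Of 13 tested SAUR genes, small auxin-induced proteins that promote acid growth, 2 fell (SAUR16 by a log2 of 2.63 and SAUR21 by 3.30) and 0 rose, with a median of −2.48. The count was 0 without dark replicate 1 or 2 or 150 min replicate 1 or 2, and 1 without either replicate 3. SAUR19 to SAUR24 are near-identical copies. SAUR14 had 2.82 (edgeR adjusted p = 0.0281). Of 21 cell wall expansion genes, XTH15, XTH30 (−1.97) and EXPA11 (−2.78) fell and 0 rose, and the median was −0.20. The count was 1 without dark replicate 1 or any 1 of the 150 min libraries. Of 13 genes of ethylene and the apical hook 0 were called by edgeR's quasi-likelihood test, and DESeq2's Wald test called 1 lower. At an unadjusted p below 0.05 in edgeR 6 were lower, against 5.81% of all genes tested. HLS1, which maintains the hook, had −3.02 and an edgeR adjusted p of 0.0317, with separated groups, as for 10.9% of all genes tested in that direction. Brassinosteroid and gibberellin genes were called in 0 of 10 cases by edgeR, and 2 were lower by DESeq2. At an unadjusted p below 0.05 in edgeR 4 were lower, again against 5.81% of all genes tested. GAI, a DELLA repressor, had −2.40 (edgeR adjusted p = 0.0113). The lists of primary wall cellulose synthesis (8 tested), type-A cytokinin response regulators (5), seed oil mobilisation (17) and the cell cycle (8) held 0 called genes, with medians of −0.49, 0.85, −0.65 and −0.27. At an unadjusted p below 0.05 edgeR gave 2 higher cytokinin regulators and 1 higher and 2 lower oil genes, and 0 in the other 2 lists. DESeq2 called 1 cytokinin regulator higher and 2 oil genes lower, and 0 in the other 2 lists.

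The study asks about vascular differentiation, and its genes were not called when 150 min was compared with the dark. CLE44, which encodes a precursor of the peptide TDIF, stood at 143.6, 101.3 and 170.6 in the dark and 41.7, 58.1 and 3.26 in the light (log2 fold change −1.93, SE 0.69, edgeR adjusted p = 0.141). Its groups were separated, as for 10.9% of all genes tested in that direction. CLE44 shares 492 bases with another gene on the same strand, AT4G13190, whose log2 fold change was −1.90. How reads were split between these 2 genes was not tested. PXL1, a receptor of TDIF, stood at 147.2, 113.5 and 237.7 and at 51.8, 29.1 and 35.9 (−2.07, SE 0.74, edgeR adjusted p = 0.138), and an antisense gene covers 3295 bases of it. CLE41, which encodes the same peptide, and the receptor PXY had 0.12 and 0.15 with overlapping groups. The paper placed CLE44 and PXL1 among genes lowered early by light, using a regression over all time points. It also reports by qRT-PCR that CLE44, unlike CLE41, responded to light. Neither the regression nor the qRT-PCR was repeated here. Comparing 150 min with the dark alone is an unlike test, so the missing calls do not decide on the paper's results. The log2 fold changes of CLE44 and PXL1 were negative here too. Of 15 genes of TDIF signaling and vascular regulation 0 passed edgeR's quasi-likelihood test. At an unadjusted p below 0.05 in edgeR 1 was higher and 3 were lower, against 8.94% and 5.81% of all genes tested. DESeq2's Wald test called 0, but 1 was called higher by edgeR without dark replicate 2. The list median of 0.12 had no stable sign, with −0.53 under scaling by total counts, −0.16 without the filter on zeros and −0.12 without dark replicate 3 or 150 min replicate 1. Of 12 xylem and secondary wall genes 0 passed at either level in edgeR or in DESeq2 (list median 0.04, but −0.37 under scaling by total counts and −0.23 without 150 min replicate 1).

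Carbon starvation genes, which plants without sugar switch on, fell in 9 of 18 cases and rose in 0, with a median log2 fold change of −1.56, against 0.561% of all genes called lower. The count was 4 without dark replicate 1 or 150 min replicate 2 and 5 without 150 min replicate 1. ASN1, an asparagine synthetase induced in darkness, went from 9985, 8461 and 4797 to 655.3, 536.3 and 802.9 (−3.54, SE 0.51, edgeR adjusted p = 7.67e-05). DIN1, a gene induced in darkness and senescence, went from 12510, 11780 and 10320 to 891.6, 1240 and 2676 (−2.85, SE 0.44). DIN10, a raffinose synthase homolog, went from 28120, 11230 and 8014 to 2746, 2192 and 2663 (−2.64, SE 0.49). The enzymes of branched-chain amino acid breakdown BCAT2, DIN3, DIN4, MCCA and MCCB fell by a log2 of 2.70, 2.34, 1.80, 2.56 and 2.06, as did GDH1 (−1.65). PRODH1 of proline breakdown (−1.48), PPDK (−1.48) and IVD (−0.82) did not pass. Their groups were separated, as for 10.9% of all genes tested in that direction. DIN9 stood at 0.06.

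**Figure D4:**
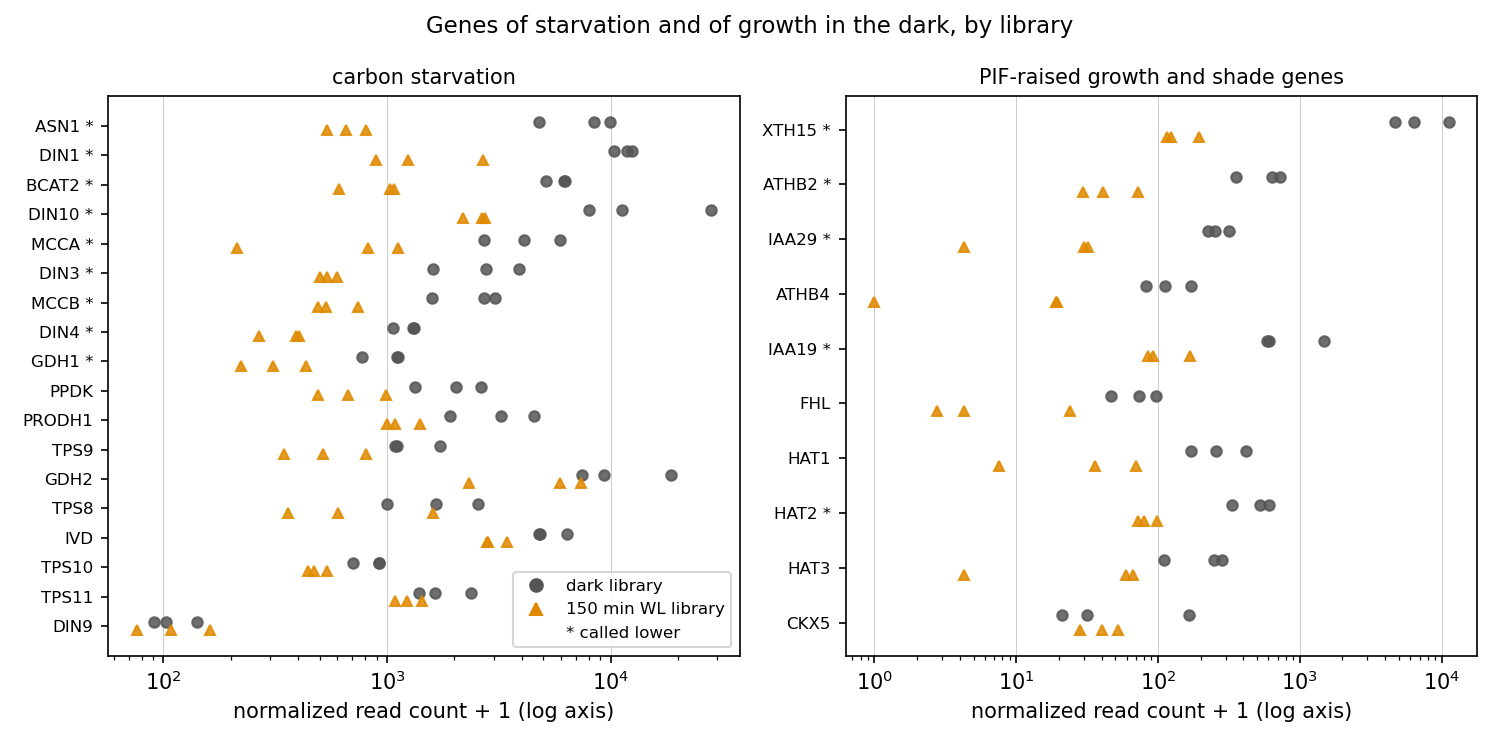
Normalized read counts plus 1 (log axis) in each dark library (circles) and each 150 min WL library (triangles) for the tested members of the carbon starvation list and of the growth and shade genes that PIFs raise, ordered by log2 fold change, with an asterisk on each gene called lower. In ASN1 the light libraries lie at 536.3 to 802.9 and the dark libraries at 4797 to 9985, while in DIN9 and CKX5 the groups overlap.

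Of 12 antioxidant enzymes and stress factors, HSFA2 and HSP101 rose, and 0 did without dark replicate 1 or 2. HSP101, a chaperone that rescues aggregated proteins, went from 108.4, 79.5 and 116.1 to 392.2, 237.3 and 492.8 (1.88, SE 0.37), and its call held in 3 of 6 fits with 1 library left out. HSFA2, a heat stress factor, went from 9.52, 14.3 and 1.81 to 404.1, 187.6 and 13.1 (4.45, SE 0.92), so that 1 light library lay among the dark ones, and the call held in 1 of 6 fits with 1 library left out. The superoxide dismutases CSD1, CSD2, FSD1, FSD2 and FSD3 had −0.55 to 1.37 and did not pass. Of 11 genes of fermentation and low oxygen PDC3 was the only one called, and its call held in 1 of 6 fits with 1 library left out, the one without 150 min replicate 2. ADH1 had 0.35.

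Set directly against 60 min of WL, 20 genes were higher at 150 min (0.119% of those tested) and 5 lower (0.0299%), and 19 of the 20 were also called higher and 4 of the 5 called lower against the dark. The 6 libraries of the 2 groups fitted alone gave 0 and 0, as did scaling by total counts, and leaving out 1 library gave 7 to 16 higher and 0 to 6 lower. The fewest higher genes came without 150 min replicate 2 (7 and 0), and without 150 min replicate 1 there were 16 and 0. The 2 comparisons share the 150 min libraries. At an unadjusted p below 0.05, 4.81% were higher and 3.8% lower. Of the 20 higher genes, 10 belonged to the lists. ELIP1 stood at a mean of 293.9 at 60 min and 2608 at 150 min (log2 fold change 3.15, edgeR adjusted p = 2.98e-04). CHS had 33.1 and 552.4 (4.13, edgeR adjusted p = 2.98e-04). LHCB1.1 (2.99), LHCB1.2 (3.62), LHCB6 (1.84), PSAH2 (2.62), RBCS1B (3.75), RBCS3B (3.01), GLDP1 (2.54) and SEP1 (2.16) were the other list genes higher than at 60 min. XTH15 (−2.98) and BBX17 (−3.76) were lower. RVE2, a MYB factor of the clock family, was lower than at 60 min as well (−2.53, edgeR adjusted p = 0.00377) but did not pass the test against the dark (−0.41, edgeR adjusted p = 0.739): its means were 554.1 in the dark, 2404 at 60 min and 415.7 at 150 min. Against 60 min HY5 (0.30), SIG5 (0.46), BBX24 (−0.15) and BBX30 (−0.90) did not pass the test.

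**Figure D5:**
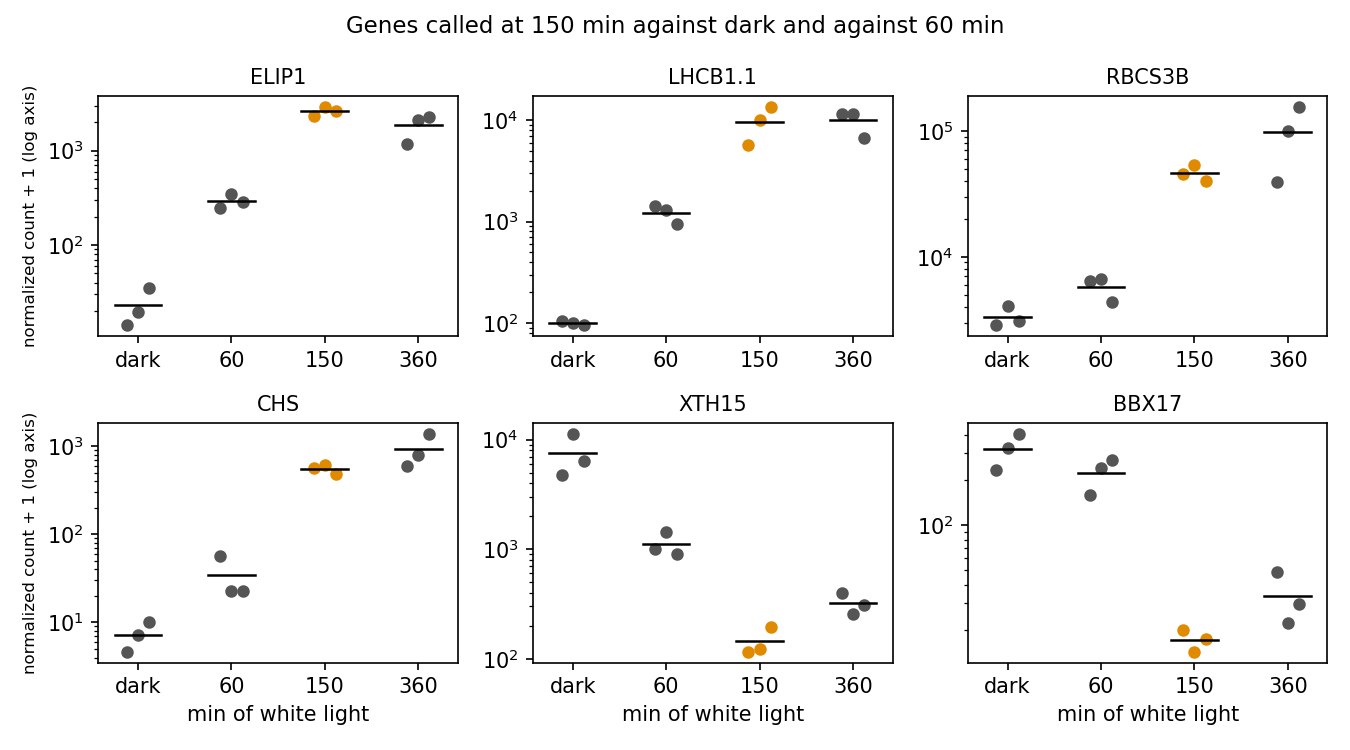
Normalized read counts plus 1 (log axis) of 6 genes in each library of the dark, 60 min, 150 min and 360 min groups, with the 150 min libraries in orange and the group mean as a line. The 6 genes were picked from those called at 150 min both against the dark and against 60 min. ELIP1 has means of 293.9 at 60 min and 2608 at 150 min. In all 6 genes the 150 min libraries lie to 1 side of the dark and of the 60 min libraries, which this choice favours.

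Against 360 min of WL, 0 genes were higher and 0 lower at 150 min in edgeR's quasi-likelihood test, with 2.29% and 3.39% at an unadjusted p below 0.05, and DESeq2's Wald test called 4 and 13. LHCB1.1 had a log2 difference of −0.04, CHS −0.73, HY5 0.35 and XTH15 −1.18 (150 min minus 360 min). Replicates 1 and 2 at 360 min held 10.5% and 4.24% of the genes tested at 0 counts.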

How the data were processed

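Poly(A) RNA of whole seedlings was sequenced. Per the labels the authors quantified transcripts with kallisto and used DESeq 1.36.0 and edgeR 3.26.8, and per the methods the AtRTD2-QUASI transcriptome served as reference. The deposited files hold, for each library, estimated counts and TPM (length-normalized abundances) for 82190 transcripts. A deposited table of normalized gene values was not used here. Transcript values were combined to gene counts by length-scaled TPM and rounded. A gene was removed where 2 or more of the 3 replicates of any time point were 0. edgeR 4.0.16 (quasi-likelihood, robust, TMM) was fitted to all 18 libraries in R 4.3.3, with Benjamini-Hochberg adjustment over all genes tested and a threshold of 0.01. DESeq2 1.42.0 was an alternative. The procedure was tested on simulated data. A fold change is in log2, with edgeR's prior count.

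Plastid ribosomal RNA was recognised by transcript length. Plastid transfer RNA could not be separated. Upstream sequence came from the RefSeq TAIR10.1 genome. Named genes were the called list members and in each direction the 12 largest changes among called genes whose 6 libraries averaged 10 or more normalized counts and whose groups were fully separated. Members and lists were chosen with earlier results of these data known. Light intensity and the library protocol differ between labels and methods, and strand use in the assignment of reads is not stated.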

Additional observations from a re-analysis of the deposited data

How the results depend on the processing

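The figures here are counts of genes higher and lower. Against the dark they were 368 and 94, and total count scaling left 3 and 1 (0 and 0 against 60 min) and moved the median log2 fold change of all genes from −0.03 to −0.52. Under it PHYB stood at −0.048, PIF1 at −0.27, PIF5 at −0.20, CLE41 at −0.58 and PXY at −0.34. Total counts without plastid rRNA gave 287 and 87 against the dark, with a median log2 fold change of all genes of −0.11. The same scaling gave 12 and 3 against 60 min and −0.0205 for CLE41. DESeq2's Wald test gave 616 and 216 against the dark, 85 and 49 against 60 min and 4 and 13 against 360 min. An adjusted p below 0.05 gave 600 and 196, then 48 and 17, and 1 lower against 360 min. Without the filter on zeros the counts were 38 and 10 against 60 min, with 1 lower against 360 min. The 6 libraries of the groups compared, fitted alone, gave 0 and 0 against 60 min. The replicate block gave 302 and 71 against the dark and 18 and 3 against 60 min. Each gene's group mean was subtracted from its log2 normalized counts (plus 1), and the remaining deviations were correlated between libraries. For replicates of the same number in the dark and at 150 min these correlations of deviations were 0.393, 0.048 and 0.222. For those of unlike number they were −0.334 to 0.062. The main fit did not take the replicate numbers as pairs, and whether they pair libraries was not tested. Without 1 library the counts were 218 to 285 and 41 to 79 against the dark and 7 to 16 and 0 to 6 against 60 min. In these fits PHYB ran from −0.27 to 0.46, PIF1 from −0.14 to 0.25, PIF5 from −0.045 to 0.68, CLE41 from −0.14 to 0.46 and PXY from −0.03 to 0.41. Without both replicates 3, chosen after seeing the data, 197 and 40 were left, CLE41 was −0.13 and PXY −0.048. In 100 bases upstream the G-box was in 10.3% of genes called higher, 9.57% of those called lower and 4.43% of all, the E-box in 4.62%, 11.7% and 4.38%, GATAA in 32.3%, 29.8% and 27.7%, ACGT in 34.8%, 26.6% and 24.8%, and the evening element in 1.36%, 1.06% and 1.06%. None of the 133 named genes changed direction in 18 settings, which their choice by the call favours, and the settings reuse the same libraries. The call was kept by 4 of them under scaling by total counts and by 113 under total counts without plastid rRNA. Without both replicates 3 it was kept by 84. The cause of these shifts was not tested.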

Other observations

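The genes given here lie outside the lists and were chosen from the called genes after their values were seen. No list of their families was fixed, relatives that did not pass were not counted, and nothing is said of a family as a whole. PMI2, which acts in chloroplast movement, rose from 27.8, 44.9 and 29.0 normalized read counts in the dark to 477.3, 610.1 and 940.0 at 150 min (log2 fold change 4.3, SE 0.55). KAC1, JAC1 and PMI1, with roles in the same process, rose by a log2 of 3.68, 3.09 and 2.49. FTSH8, a thylakoid protease of photosystem II repair, went from 159.0, 181.5 and 217.7 to 934.5, 1352 and 1616 (2.81, SE 0.39). FTSH1, VAR1 and VAR2 rose by 2.71, 2.56 and 1.69.

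HSP70 (AT3G12580), a chaperone gene, went from 268.8, 250.1 and 368.3 to 3600, 3162 and 1968 (3.30, SE 0.36), and every light library lay above every dark library. HSP90.1, HSP81-3, ROF1 and HSP17.6II rose by 3.02, 2.69, 1.91 and 4.08.

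Among genes called lower, BT2, a scaffold protein with BTB and TAZ domains, went from 3680, 3899 and 2566 to 629.1, 461.2 and 368.8 (−2.79, SE 0.50). Its relative BT1 had −2.48, and the GATA factors GATA2 and GATA4 had −2.32 and −2.26.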
